A study of Mus musculus with 3 samples.

Results

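Cytochrome P450 genes were described in the isolated kidney glomeruli of mice without diabetes. Members were all genes whose symbol has the form of a numbered P450 family, subfamily and gene, without the retinoic acid hydroxylase genes Cyp26a1 and Cyp26b1, and read by probe sets annotated to a single gene. This gave 68 genes on 91 probe sets, of 18194 genes in all. Por, the gene of the electron donor shared by the P450 enzymes of the endoplasmic reticulum, belonged to the set by rule, but 0 probe sets had it as their single gene, and it was not analysed here.

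The samples were glomeruli of 3 male FVB/NJ mice aged 8 weeks, each measured on 1 Affymetrix mouse whole-genome array. The strain carried no transgene or treatment, and the mice were the nondiabetic controls for OVE26 mice, a transgenic diabetic line that was not analysed here. All statements therefore concern a single group and the spread between its mice, which are named mouse 1, mouse 2 and mouse 3 by the numbers in the sample titles. No comparison between groups was possible, and the labels give all 3 mice the same strain, sex, age, diet and disease state.

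P450 enzymes are heme proteins that insert an oxygen atom into their substrates, drawing electrons from a reductase. Some make steroid hormones, bile acids or the active form of vitamin D, some clear drugs and foreign chemicals, and some turn arachidonic acid into vasoactive epoxides and hydroxylated fatty acids. In the kidney, proximal tubule cells are known for the Cyp2e1, Cyp2j5 and Cyp4a enzymes, and P450 products of arachidonic acid act on renal vessels and salt transport. The tubule surrounds the glomerulus in the cortex.

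Of 4 members, Cyp2e1, Cyp2j5 and Cyp2d9 differed widely between mice and Cyp4b1 did not, and their promoter sequences are shown first. Each is the 250 bases before the transcription start in RefSeq (build GRCm38.p6), 5′ to 3′ on the gene's strand, at chr7:140763569-140763818 (plus strand) for Cyp2e1, chr4:96664120-96664369 (minus strand) for Cyp2j5, chr15:82452127-82452376 (plus strand) for Cyp2d9 and chr4:115647722-115647971 (minus strand) for Cyp4b1. Capitals mark TATAAA, the TATA box hexamer, on either strand, so that TTTATA is its reverse complement.
Cyp2e1: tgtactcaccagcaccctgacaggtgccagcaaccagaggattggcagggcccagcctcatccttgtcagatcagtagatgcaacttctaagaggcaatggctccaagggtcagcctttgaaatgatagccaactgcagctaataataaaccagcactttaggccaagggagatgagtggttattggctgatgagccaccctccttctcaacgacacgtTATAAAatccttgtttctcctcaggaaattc
Cyp2j5: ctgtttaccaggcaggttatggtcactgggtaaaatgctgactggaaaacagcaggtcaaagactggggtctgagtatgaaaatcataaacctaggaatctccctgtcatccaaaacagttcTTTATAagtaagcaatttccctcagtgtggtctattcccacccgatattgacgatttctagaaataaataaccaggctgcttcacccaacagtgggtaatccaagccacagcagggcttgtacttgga
Cyp2d9: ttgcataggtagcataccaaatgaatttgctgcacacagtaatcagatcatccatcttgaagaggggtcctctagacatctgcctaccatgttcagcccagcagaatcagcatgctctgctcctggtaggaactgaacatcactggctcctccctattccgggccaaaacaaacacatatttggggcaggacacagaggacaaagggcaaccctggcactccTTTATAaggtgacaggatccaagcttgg
Cyp4b1: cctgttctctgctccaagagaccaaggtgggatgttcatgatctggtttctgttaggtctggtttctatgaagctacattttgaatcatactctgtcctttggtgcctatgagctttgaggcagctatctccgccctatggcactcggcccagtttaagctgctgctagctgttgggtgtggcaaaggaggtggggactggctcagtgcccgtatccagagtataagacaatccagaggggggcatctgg
In Cyp2e1 the hexamer began 31 bases before the start on the gene's own strand. In Cyp2d9 it lay 28 bases before the start and in Cyp2j5 128 bases before it, on the opposite strand in both. Cyp4b1 had 0 matches in this window. A near match, TATAAG, lies in the windows of Cyp4b1, Cyp2d9 and Cyp2j5, and in Cyp2d9 and Cyp2j5 it overlaps the marked letters. Over other members the hexamer and the spread between mice did not go together in every case. Cyp3a44 varied little and had it, while Cyp2s1 and Cyp2j11 differed at least 2-fold and did not. Among dimmer members, Cyp2d26 differed at least 2-fold and had it, while Cyp2j13 did so without it. Cyp1b1, Cyp20a1, Cyp27a1, Cyp2j6, Cyp4f16 and Cyp4v3 stayed under 2-fold and lacked it. A link between hexamer and spread was not tested.

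Values below are log2 GCRMA expression values, which the authors deposited with 1 value per probe set, so a difference of 1 is a 2-fold difference. Errors are SD over the 3 mice (n = 3). Where a gene had several probe sets, the 1 with the highest mean stood for it. Probe sets differ in how strongly they bind, so levels were compared between mice and never between genes. A gene was called above the floor when it exceeded the 95th percentile of 80 olfactory and vomeronasal receptor probe sets on an array, which was 2.58, 2.91 and 2.86 for mice 1, 2 and 3.

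The isolates carried the markers of glomerular cells, and tubule and leukocyte markers varied between them. All 5 measured podocyte, 7 endothelial and 4 mesangial markers were above the floor in every mouse. So were 2 of 3 parietal epithelium markers, while Krt8 (2.37, 3.81 and 3.73) was below the floor in mouse 1. Proximal tubule markers were above it in every mouse for 15 of 17, and 14 of these 15 had a range of at least 2-fold. All 15 were highest in mouse 3, by a median of 2.43 over the mean of the other mice, and 14 of 15 were lowest in mouse 1. The log2 of the summed linear values of all 17 measured markers was 11.15, 11.91 and 13.79 in mice 1, 2 and 3. Of 11 loop, distal and collecting duct markers 5 were above the floor in every mouse, and 4 of these 5 were highest in mouse 2. Leukocyte markers above the floor, 5 of 8, were all lowest in mouse 3. The actin 3′ minus 5′ probe difference, a sign of RNA quality, was 1.49, 1.81 and 2.05. The same difference for Gapdh was 0.48, 1.08 and 0.92, so the controls put different mice highest. In such bulk samples, more cells of a type and more RNA per cell cannot be told apart.

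Most P450 genes gave no signal above the floor. Of the 68 genes, 14 (20.6%) were above it in all mice, against 58.3% of all 18194 genes. A further 7 (10.3%) were above it in 1 or 2 mice, against 6.35% of all genes, and 47 (69.1%) were below it in every mouse, against 35.3%. A value below the floor does not show that the RNA was absent, only that this probe set did not stand out from receptors that the kidney is not expected to express. The values of those 47 genes ran from 1.09 to 2.84. Of 4 measured hepatocyte markers, from the organ richest in P450 enzymes, Apoa1, Ttr and Cps1 were below the floor in every mouse, and Alb was just above it at 2.59, 2.96 and 3.08.

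**Figure D1:**
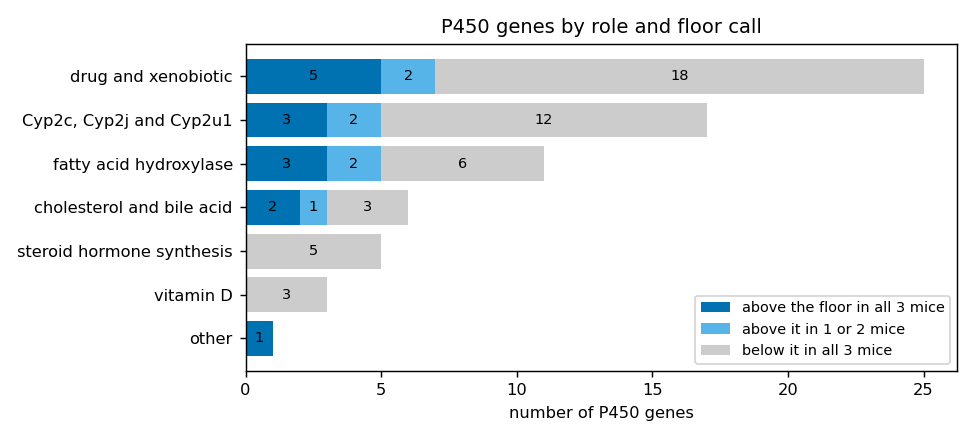
Number of P450 genes in each role (horizontal axis, genes), split by whether the probe set was above the floor in all 3 mice, in 1 or 2, or in 0. Of 25 drug and xenobiotic genes 5 were above it in all mice, and all 5 steroid hormone and all 3 vitamin D genes were below it in every mouse.

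Hormone and vitamin D enzymes lay below the floor throughout. The steroid hormone genes were Cyp11a1, which encodes the side-chain cleavage enzyme that starts steroid synthesis, Cyp11b1 and Cyp11b2 of corticosterone and aldosterone synthesis, Cyp17a1 of androgen synthesis, and Cyp21a1, a steroid hydroxylase gene of the adrenal cortex. Their values were between 1.09 and 2.19. Adrenal cortex markers were below the floor for 3 of 4, with Nr5a1, Mc2r and Hsd3b1 below it in every mouse and Star above it in all at 3.68, 3.30 and 3.76. The vitamin D genes were Cyp2r1 of the liver's activation step, Cyp27b1, which makes the active hormone in the proximal tubule, and Cyp24a1, which degrades it, with values from 1.38 to 2.45. Cyp27b1 was at 1.54, 1.38 and 1.57 in mice 1, 2 and 3. The mouse with the highest proximal tubule markers thus gave no Cyp27b1 value above the floor. The vitamin D receptor gene Vdr was above it in every mouse (8.34 ± 0.24).

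Among sterol and bile acid genes, 2 of 6 were above the floor in all mice. Cyp27a1, which encodes a mitochondrial sterol hydroxylase, was at 8.28, 7.97 and 8.18 in mice 1, 2 and 3 (8.14 ± 0.16), a range of 1.24-fold. Cyp39a1, an oxysterol hydroxylase gene, was at 4.36, 3.75 and 4.35. Mouse 2 was lowest for both, and mice 1 and 3 lay closer to each other than to mouse 2. Cyp46a1, whose enzyme hydroxylates cholesterol in neurons, was at 2.39, 2.79 and 3.08 and passed the floor in mouse 3 only. Cyp7a1, the rate-limiting enzyme gene of bile acid synthesis, Cyp7b1 and Cyp8b1 were below the floor in every mouse, between 1.49 and 2.48.

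The drug and xenobiotic group of 25 genes held both steady and widely varying members, with 5 above the floor in all mice. Cyp1b1, whose enzyme oxidises estradiol and polycyclic hydrocarbons, was at 9.09, 8.71 and 9.13 (8.98 ± 0.23). Its relatives Cyp1a1 and Cyp1a2, classical targets of the aryl hydrocarbon receptor, were below the floor in every mouse. The receptor gene Ahr itself was above it (9.34 ± 0.05). Cyp2d22, a drug-metabolising gene of the Cyp2d cluster, was at 8.90, 8.81 and 8.87 (8.86 ± 0.05). It had the smallest SD of the 14 P450 genes above the floor in all mice. Cyp3a44, of the liver's Cyp3a drug-metabolising subfamily, was just above the floor at 3.31, 3.21 and 3.10.

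Cyp2e1, which oxidises ethanol, acetone and small solvents, had the largest spread of the family. It was at 6.15, 6.01 and 9.60 in mice 1, 2 and 3 (7.25 ± 2.03). Mice 1 and 2 lay close together and mouse 3 was 3.52 above their mean, an 11.5-fold difference. Cyp2s1, a P450 of epithelia outside the liver, was at 7.35, 6.51 and 8.17 (7.35 ± 0.83). Here the mice were evenly spaced, with mouse 2 lowest and mouse 3 highest, 3.16-fold apart.

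Members of the Cyp2d cluster, which neighbour each other in the RefSeq gene order, did not share a pattern. Beside the steady Cyp2d22, Cyp2d9 was at 2.57, 2.95 and 4.80 in mice 1, 2 and 3, just below the floor in mouse 1, just above it in mouse 2 and well above it in mouse 3. Cyp2d26 was at 2.11, 2.60 and 3.24 and above the floor in mouse 3 only. Cyp2d10, Cyp2d12, Cyp2d13, Cyp2d34 and Cyp2d40 were below it in every mouse. These genes are close relatives, so probe sets of the cluster can share signal, and which copy was measured is uncertain. The other xenobiotic genes below the floor in all mice were Cyp2a12, Cyp2b9, Cyp2b10, Cyp2b13, Cyp2b19, Cyp2f2, Cyp2g1, Cyp3a11, Cyp3a13, Cyp3a16 and Cyp3a25.

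**Figure D2:**
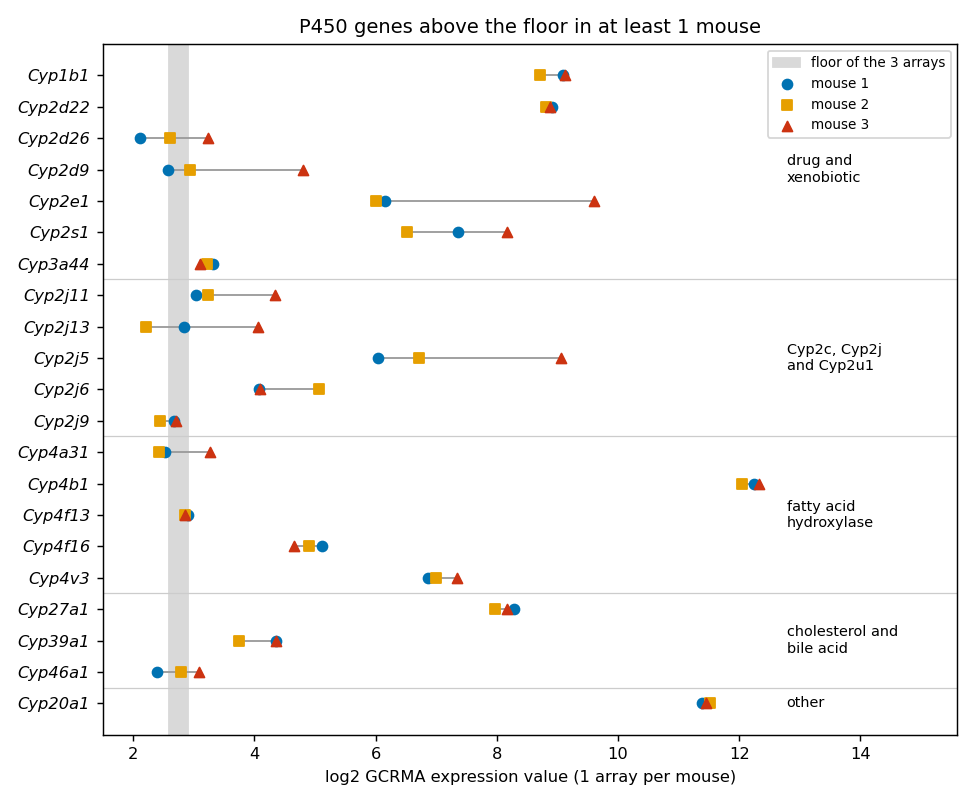
Log2 GCRMA expression value (horizontal axis) of each of the 21 P450 genes above the floor in at least 1 mouse, with a symbol for each mouse and a grey band over the floors of the 3 arrays (2.58 to 2.91). Cyp2e1, Cyp2j5 and Cyp2d9 show mouse 3 far to the right, while the 3 symbols of Cyp2d22, Cyp4b1 and Cyp20a1 nearly coincide.

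Among the Cyp2c, Cyp2j and Cyp2u1 genes, many of which encode arachidonic acid epoxygenases, signal came from the Cyp2j genes. Cyp2u1 encodes a fatty acid hydroxylase and Cyp2c70 a bile acid hydroxylase, so the group is one of subfamilies and not of a single activity. All 11 measured Cyp2c genes (Cyp2c23, Cyp2c29, Cyp2c37, Cyp2c38, Cyp2c39, Cyp2c50, Cyp2c54, Cyp2c55, Cyp2c65, Cyp2c68 and Cyp2c70) and Cyp2u1 were below the floor in every mouse, between 1.28 and 2.38. Cyp2j5, known as an epoxygenase of the mouse proximal tubule, was at 6.05, 6.71 and 9.06 in mice 1, 2 and 3 (7.27 ± 1.58). Mouse 3 was 2.68 above the mean of the others, a 6.42-fold difference.

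The other Cyp2j genes form a cluster with Cyp2j5 in the order Cyp2j13, Cyp2j12, Cyp2j11, Cyp2j8, Cyp2j6, Cyp2j9 and Cyp2j5. Cyp2j11 was at 3.03, 3.24 and 4.34, and Cyp2j13 was at 2.84, 2.21 and 4.06, below the floor in mouse 2. Both were highest in mouse 3, as Cyp2j5 was. Cyp2j6, which lies between Cyp2j11 and Cyp2j5, was highest in mouse 2 instead, at 4.08, 5.07 and 4.09, a range of 0.99. Cyp2j9 stayed near the floor at 2.68, 2.44 and 2.70 and was above it in mouse 1 only. The probe sets of Cyp2j6 disagreed on the highest mouse, as given with the other probe sets.

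Fatty acid hydroxylase genes of family 4 were above the floor in all mice for 3 of 11 members, none of which reached a 2-fold range. Cyp4b1, whose enzyme activates plant toxins in the lung, was at 12.24, 12.05 and 12.33 (12.21 ± 0.14). Cyp4v3, a fatty acid hydroxylase gene whose human counterpart is mutated in a crystalline retinal dystrophy, was at 6.86, 6.99 and 7.34 (7.07 ± 0.25). Cyp4f16 was at 5.11, 4.91 and 4.66 (4.89 ± 0.23) and was lowest in mouse 3, where Cyp4v3 was highest. Cyp4a31, of the subfamily that hydroxylates arachidonic acid at its end carbon, was at 2.53, 2.42 and 3.26 and above the floor in mouse 3 only. Cyp4f13 was at 2.90, 2.86 and 2.86, above the floor in mouse 1, below it in mouse 2 and barely above it in mouse 3. The values in mice 2 and 3 were identical, as GCRMA gives for dim probe sets. Cyp4a14, Cyp4f14, Cyp4f15, Cyp4f18, Cyp4f39 and Cyp4x1 were below the floor in every mouse. Cyp20a1, an orphan P450 with no settled substrate, was at 11.39, 11.51 and 11.46 (11.45 ± 0.06).

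Over the 14 P450 genes above the floor in all mice, 4 had a range of at least 2-fold (28.6%), against 5.94% of all 10610 genes above the floor. They were Cyp2e1, Cyp2j5, Cyp2s1 and Cyp2j11, and all 4 were highest in mouse 3. The median SD was 0.239, against 0.157 over all 10610 genes. The 14 genes were highest in mouse 3 for 7, against 36.3% of all genes, in mouse 1 for 5 (34.0% of all) and in mouse 2 for 2 (28.2% of all). Mouse 2 was lowest for 7 of 14, against 34.5% of all genes, mouse 1 for 5 (32.0% of all) and mouse 3 for 2 (31.7% of all). Without mouse 3, 0 of 14 P450 genes had a 2-fold range between the remaining mice, against 2.97% of all genes. Without mouse 2, 4 of 16 did, with Cyp2j13 in place of Cyp2s1, against 3.43% of all genes.

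Excess variance was tested with limma, in which the variance of each gene was set against the distribution fitted across all 10610 genes. After Benjamini-Hochberg adjustment 0 genes of 10610 passed 0.05 (0% as background), and 0 of 14 P450 genes did. The smallest adjusted p from limma was 0.469 over all genes and 0.595 among P450 genes, for Cyp2e1. For Cyp2j5, Cyp2s1 and Cyp2j11 the adjusted p from limma was 0.642, 0.836 and 0.971. At an unadjusted p under 0.05 there were 494 genes of 10610 in limma, of which 4 were the P450 genes with a 2-fold range. The fitted reference distribution had 3.11 degrees of freedom beside the 2 of each gene. It therefore has a heavy tail, in which even an 11.5-fold difference gives a large adjusted p, and the test has little power here. The spread of the P450 genes is given as a description.

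**Figure D3:**
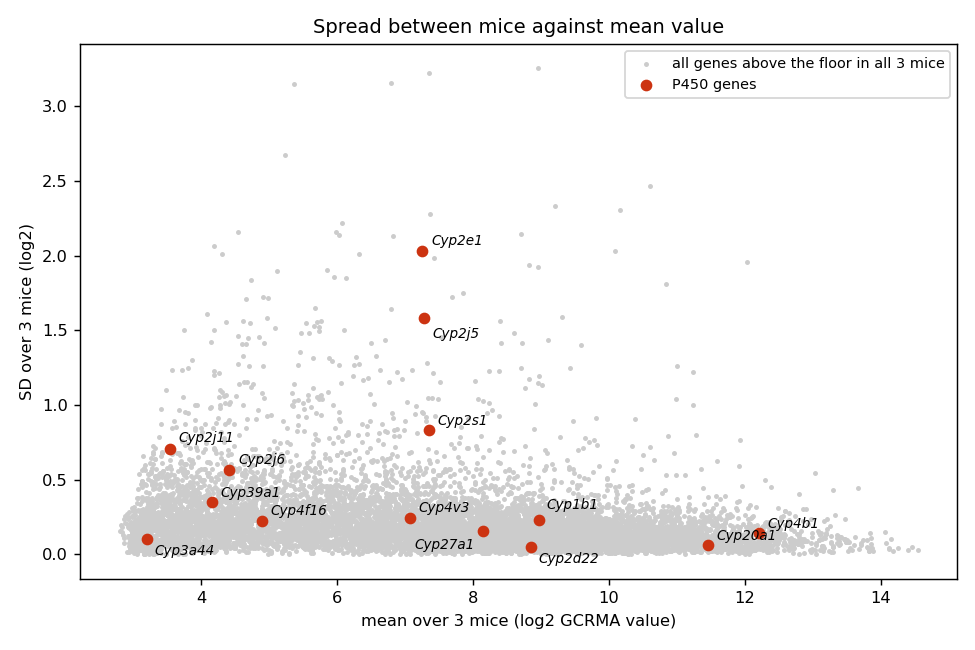
SD over the 3 mice (vertical axis, log2) against the mean over the mice (horizontal axis, log2 GCRMA value), with grey points for the 10610 genes above the floor in all mice and red points for the 14 P450 genes among them. Cyp2e1 (SD 2.03) and Cyp2j5 (SD 1.58) stand far above the bulk of genes of like mean, while Cyp2d22, Cyp20a1 and Cyp4b1 lie within it.

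The order of the mice divided the 14 genes above the floor in all of them. The share of each order over all genes was not counted, so these counts are only a description. For 3 genes (Cyp2j5, Cyp2j11 and Cyp4v3) mouse 1 was lowest and mouse 3 highest. The proximal tubule markers Slc34a1 (4.44, 5.35 and 7.41), a phosphate transporter gene, and Lrp2 (5.04, 5.43 and 7.81), the megalin gene, gave that order, and mouse 1 was lowest for 14 of the 15 such markers above the floor. For 4 genes, Cyp2e1 (with mice 1 and 2 close, at 6.15 and 6.01), Cyp2s1, Cyp1b1 and Cyp4b1, mouse 2 was lowest and mouse 3 highest. Pck1, a gluconeogenesis gene, was the 1 proximal tubule marker with that order, at 7.22, 6.50 and 9.82.

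In mouse 3 the differences of Cyp2e1 (3.52) and Cyp2j5 (2.68) fell within those of the 15 proximal tubule markers above the floor, which ran from 0.59 to 3.68. Cyp2s1 (1.24) and Cyp2j11 (1.20) lay in that span only because of its lowest marker, Slc22a12 (3.26, 3.69 and 4.06). Both were below every other marker and below the marker median of 2.43. Cyp2d9 and Cyp2j13 were not above the floor in mouse 1 and mouse 2, respectively, so their differences are not exact and were left out of this comparison. Podocyte markers in mouse 3 had a median difference of -0.11 and endothelial markers of -0.15. Cyp2j6 had the lowest difference (-0.48), which was 0.016 without mouse 2 and -0.98 without mouse 1. The part of tubule RNA, or of RNA quality, in these P450 values was not tested. Cyp4b1, Cyp1b1, Cyp27a1, Cyp2d22 and Cyp20a1 had differences of 0.23 or less in mouse 3, the sample with the highest tubule marker values. The dimmer probe set of Cyp1b1 above the floor gave 0.46.

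**Figure D4:**
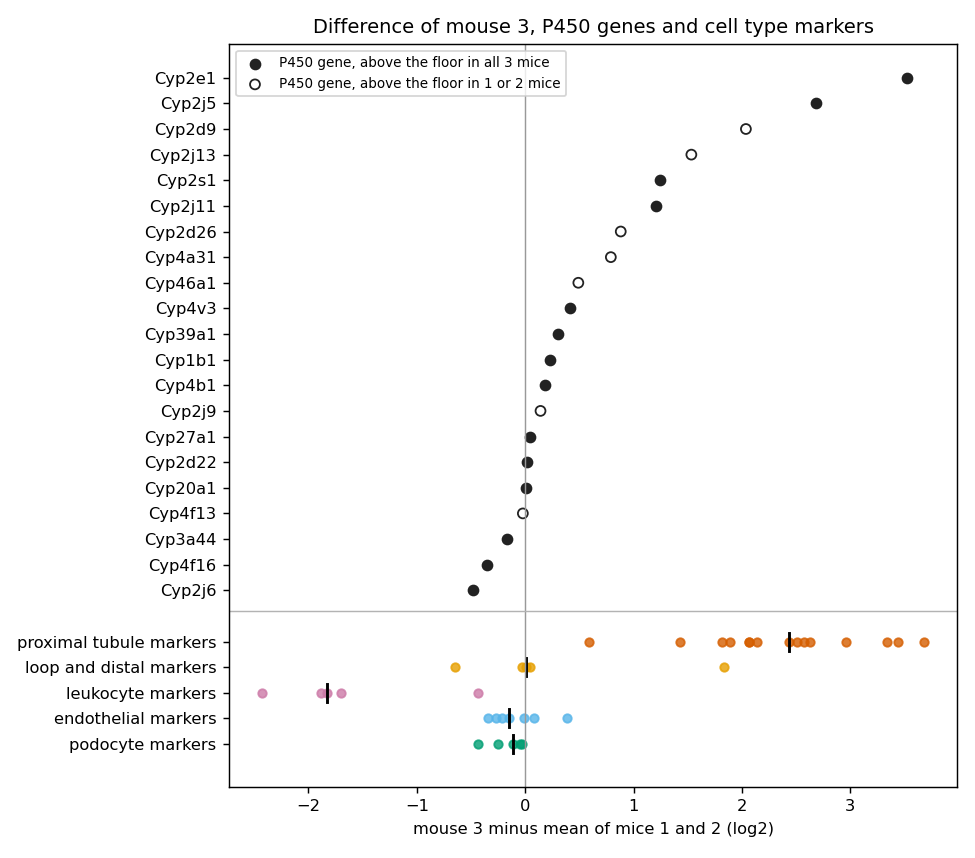
Difference between mouse 3 and the mean of mice 1 and 2 (horizontal axis, log2) for the 21 P450 genes, filled where the gene was above the floor in all mice, and for the markers of 5 cell types above the floor in all mice, with a black bar at each median. P450 genes ran from -0.48 (Cyp2j6) to 3.52 (Cyp2e1), open symbols rest on at least 1 value below the floor and are not exact, and the proximal tubule markers all lay to the right of 0, with a median of 2.43.

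For 9 of the 21 named genes, more than 1 probe set was measured, which gives a check on the reading. The other probe set of Cyp2j5 was at 2.05, 2.56 and 4.63. It was above the floor in mouse 3 only, so it bears on mouse 3 being highest and not on the size of the difference or the order of mice 1 and 2. A dimmer probe set of Cyp1b1 at 7.63, 7.36 and 7.95 and that of Cyp2d22 at 6.74, 6.55 and 6.69 also kept the order of the chosen probe set. For Cyp2j6 the probe sets disagreed: the other was highest in mouse 1, at 3.73, 3.57 and 3.32. The other probe set of Cyp4v3 had mouse 3 highest as well, but mouse 2 lowest in place of mouse 1 (3.92, 3.58 and 4.15). A dimmer probe set of Cyp20a1 had mouse 2 highest as well (5.23, 5.88 and 5.73). The remaining probe sets of Cyp1b1, Cyp20a1, Cyp27a1, Cyp4a31 and Cyp4f16 were below the floor in every mouse. Cyp2e1, Cyp2s1 and Cyp2j11 were each read by 1 probe set, so their values have no such check.

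**Figure D5:**
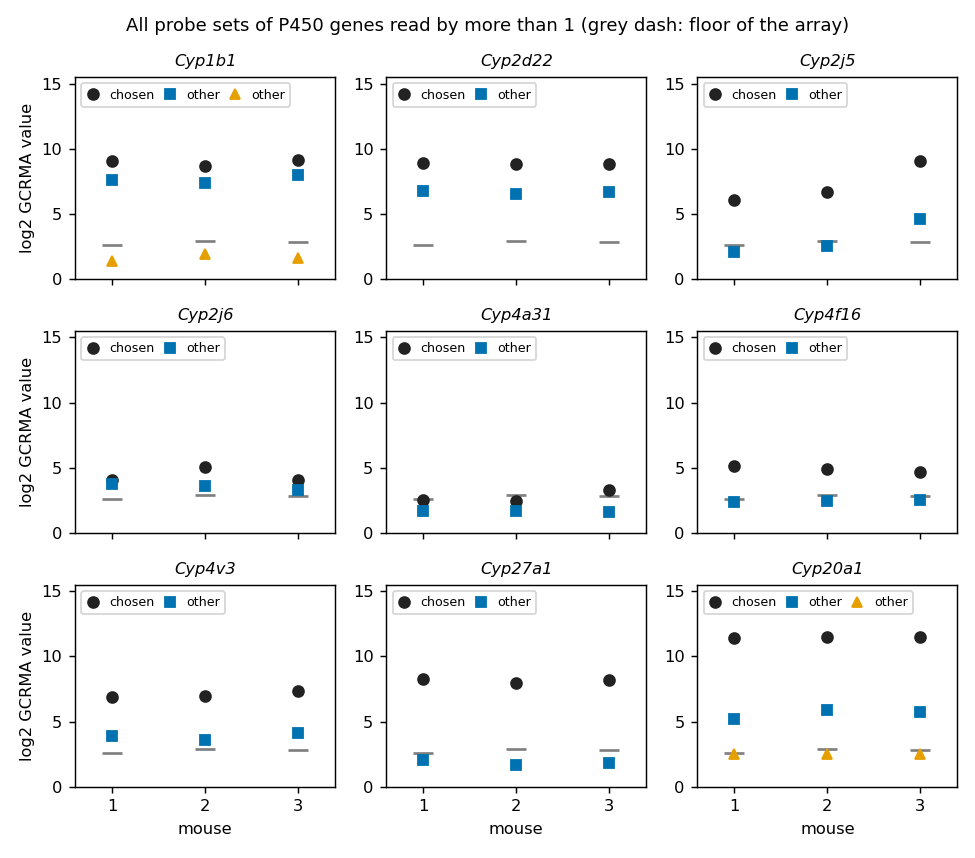
Log2 GCRMA value (vertical axis) in mice 1, 2 and 3 (horizontal axis) of every probe set of the 9 P450 genes read by more than 1, with the chosen probe set in black, the others in colour and the floor of each array as a grey dash. Both probe sets of Cyp2j5 are highest in mouse 3, at 9.06 and 4.63, and those of Cyp2j6 disagree on the highest mouse.

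Genes that act with the P450 enzymes were mostly above the floor. Of 34 listed partner genes 30 were measured and 25 were above the floor in all mice, against 58.3% of all genes. Of these 25, 2 had a 2-fold range, against 5.94% of all genes above the floor. Those were Ephx2, the soluble epoxide hydrolase gene whose enzyme breaks down arachidonic acid epoxides, at 4.43, 5.56 and 6.27, and the nuclear receptor gene Hnf4a, also a proximal tubule marker, at 3.19, 3.79 and 5.56. Both had the order of mice of Cyp2j5, and neither passed the adjusted threshold in limma, where 0 of 25 did. The microsomal epoxide hydrolase gene Ephx1 was steady (11.24 ± 0.09). Electron transfer genes were above the floor for 5 of 5, among them Cyb5a of cytochrome b5 (12.09 ± 0.18) and Fdx1 of adrenodoxin (9.65 ± 0.22), the electron donor of mitochondrial P450 enzymes. All 8 measured genes of heme synthesis and breakdown were above the floor, with the rate-limiting synthase gene Alas1 at 7.64 ± 0.12. Of P450 genes with other symbols, Cyp51, the lanosterol demethylase gene of cholesterol synthesis, was at 5.64, 6.03 and 6.39, and the prostacyclin synthase gene Ptgis was at 5.09, 4.91 and 5.38. The xenobiotic receptor genes Nr1i2 and Nr1i3 were below the floor in every mouse.

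Promoter windows were matched for 49 of the 68 genes and for 27025 genes in all, taking the first entry of each gene in the RefSeq table and the 250 bases before the start, searched on both strands. TATAAA was present in 18 of 49 P450 promoters (36.7%), against 13.0% of all. It was present in 3 of 12 genes above the floor in all mice (Cyp2e1, Cyp2j5 and Cyp3a44), in 2 of 6 with mixed calls (Cyp2d9 and Cyp2d26) and in 13 of 31 below the floor. CpG dinucleotides, which are dense in promoters of widely expressed genes, numbered 15 in Cyp20a1, 12 in Cyp1b1, 17 in Cyp4v3 and 15 in Cyp2s1. Cyp27a1 had 7. Cyp2e1, Cyp2j5, Cyp2j11, Cyp3a44 and Cyp4f16 had 2 each, Cyp2d9 had 1, and Cyp4b1 and Cyp2j6 had 3 each. The median was 6 over all genes, 2 over the 49 P450 genes and 3 over the 12 above the floor in all mice.

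Further motifs were searched in the same windows. AGGTCA, the half-site of many nuclear receptors, was present in 11 of 49 (22.4%), against 13.8% of all, and Cyp2j5 was among them. CAAAGTCCA, a site of the liver and kidney factor HNF4A, was present in 6 of 49 (12.2%), against 0.381% of all. Those 6 were Cyp2c65, Cyp2c68, Cyp2c70, Cyp3a11, Cyp3a16 and Cyp8b1, and each was below the floor in every mouse. TTGCGTG, the core of the dioxin response element, had 0 matches among the 49, against 0.925% of all promoters. A match is a description of the letters and does not show binding.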

How the data were processed

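Log2 GCRMA expression values of 45101 probe sets on 3 arrays were used as deposited. The authors summarised the arrays with GCRMA, per the submitters' processing notes. Its version and the set of arrays normalised together are not given in the sources used here. The log2 scale was inferred from the deposited values (0.67 to 14.76). GCRMA gives many dim probe sets nearly equal values, which lowers their SD.

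Probe sets with 1 gene in the platform annotation (34958) were named by it. All 68 P450 genes matched the RefSeq table (GRCm38.p6) with 0 symbols changed. Analysis used R 4.3.3 and limma 3.58.1, with an intercept-only design, a robust variance prior with a trend on mean level, a one-sided upper-tail F test and Benjamini-Hochberg adjustment over all genes above the floor. The test was checked only on simulated data drawn from its own fitted distribution, with strongly raised SDs for some genes. Smaller rises were not simulated, so that check does not give its power for them. The test measures the spread between the 3 arrays only. With 1 array per mouse, differences between animals cannot be told apart from those of isolation, RNA quality or array processing. There were 0 unused columns of per-sample values. With arrays, their number limits the precision. Members, lists and tests were chosen with earlier results of these data known. Every member above the floor in at least 1 mouse is named with its values, as are partner genes with a 2-fold range; other partner, marker and receptor genes named were chosen after their values were seen. Motifs were also chosen then. Alternatives covered the floor, the filter, the probe set rule, the normalisation, the variance prior and each mouse left out.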

Additional observations from a re-analysis of the deposited data

How the results depend on the processing

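The count of P450 genes above the floor in all mice was 11 with the floor at the 99th percentile, 14 in the other settings with all mice and 14 to 16 with a mouse left out. The count with a 2-fold range was 4 as reported. With the floor at the 99th percentile it was 3 of 11 (27.3%, against 5.02% of all genes), without Cyp2j11. With genes above the floor on at least 1 array it was 7 of 21 (33.3%, against 6.48% of all genes). With no filter it was 7 of 68 (10.3%, against 4.21%). The wider filters both added Cyp2d9, Cyp2d26 and Cyp2j13. With a mouse left out it was 0 to 5, with 0 without mouse 3. Excess variance was called by limma for 0 P450 genes in every setting run, with 0 calls over all genes too. The count highest in mouse 1 was 3 with the stricter floor, 25 with no filter and 6 to 9 with another mouse left out. Highest in mouse 2 were 14 with no filter and 4 to 5 with another mouse left out. Highest in mouse 3 were 13 with genes above the floor on at least 1 array, 28 with no filter and 10 to 11 with another mouse left out. The number of genes counted differs between these settings (11 with the stricter floor, 21 with the floor on at least 1 array, 68 with no filter). Fewer mice are compared where 1 is left out. With no filter, 47 of the 68 genes were below the floor in every mouse. The share of all genes highest in each mouse was not counted in these settings, so these counts are only a description. For single genes, 112 of 116 differences in mouse 3 moved by less than their SD. The 4 that moved more came from other probe sets of Cyp1b1, Cyp4a31, Cyp4f16 and Cyp20a1. Leaving out mouse 1 or 2 cannot move a difference by more than that SD, so those settings could not fail. The same holds for the mean over probe sets in genes with 1 probe set. Some differences changed sign within their SD, such as Cyp27a1 (0.048, and -0.105 without mouse 2). The count is therefore not a measure of stability. No paired analysis was possible because there is 1 group.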

Other observations

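Probe sets annotated to several genes were left out of the report, and 4 of them read P450 genes. The probe set of Cyp4a31 and Cyp4a10, fatty acid hydroxylases of the proximal tubule, was at 2.44, 3.24 and 6.49 in mice 1, 2 and 3, below the floor in mouse 1 and highest in mouse 3. The probe set of Cyp2a5 and Cyp2a4 was at 2.31, 2.74 and 5.31, above the floor in mouse 3 only. That of Cyp4f37 and Cyp4f16 was at 3.17, 2.76 and 3.04, and that of Cyp3a41b and Cyp3a41a was below the floor in every mouse. Cyp4a12a, whose symbol lies outside the naming rule, was at 1.99, 1.95 and 2.97 and above the floor in mouse 3 only.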
